A study of Rattus norvegicus with 9 samples.

Results

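The genes described here encode 5 collagen chains, Col6a1, Col11a1, Col11a2, Col24a1 and Col9a2, and 2 secreted glycoproteins, Sparcl1 and Prg4. They were chosen by name as matrix genes that cartilage and joint tissue use, and each was found in the files by its Ensembl gene ID, so that 7 genes of 20973 with a gene ID were followed. Their level is the FPKM (a fragment count divided by transcript length in kb and by library size) added over all isoforms of the gene. The mRNA came from bone marrow mesenchymal stem cells (MSCs) of 3 Sprague-Dawley rats aged 4 weeks, cultured to passage 3 and left untreated, and from neural progenitor-like cells (NPCs) that had been induced from such MSCs for 3 days. One set of NPCs received 20 ng/ml EGF and 20 ng/ml bFGF. The other set received EGF, bFGF and IGF-1, at a dose that the labels and the study's methods do not state. Each group held 3 libraries, 9 in all. By the study's methods, induction also moved the cells into NeuroCult NS-A medium on ultra-low attachment plates, and no suspended cells without growth factors were analysed here. The growth factors, the medium and the suspension culture therefore cannot be told apart in any comparison with MSCs. In bulk RNA, fewer cells of a type and less RNA per cell cannot be told apart either.

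Cartilage collagen is built as a heterotypic fibril. Type XI collagen, to which Col11a1 and Col11a2 each give a chain, lies in the core of the thin fibrils and limits their diameter, and type IX collagen, with its chain Col9a2, decorates their surface. Type VI collagen, with its chain Col6a1, forms beaded filaments that in cartilage surround each chondrocyte, while type XXIV collagen, encoded by Col24a1, is a minor fibrillar collagen best known from bone. Sparcl1, also called hevin, is a secreted relative of SPARC with anti-adhesive properties, and Prg4 encodes lubricin, the mucin-like lubricant of the joint surface.

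The study's methods name the rn6 genome for an alignment other than the one in these files, and no source used here ties the deposited coordinates to a build. In those coordinates Col6a1 (ENSRNOG00000001249) lies on chromosome 20 from 14817563 to 14835866 and Col11a2 (ENSRNOG00000000463) on the same chromosome from 5909495 to 5938415. Col11a1 (ENSRNOG00000023148) spans chromosome 2 from 234955506 to 235148332, and Col24a1 (ENSRNOG00000014143) the same chromosome from 269728156 to 269962702. Col9a2 (ENSRNOG00000011502) lies on chromosome 5 from 143756118 to 143773305 and Sparcl1 (ENSRNOG00000015093) on chromosome 14 from 6985393 to 7016295. These 6 genes are on the plus strand. Prg4 (ENSRNOG00000002385) is on the minus strand of chromosome 13 from 72637409 to 72653723, and its last 240 bases overlap ENSRNOG00000002394 on the other strand, which stood at 14.5 to 24.7 FPKM in the MSC libraries, where Prg4 was listed at 0, and at 18.2 to 29.0 FPKM in the induced ones. The longest annotated transcript holds 67 exons for Col11a1, 62 for Col11a2, 59 for Col24a1, 35 for Col6a1, 32 for Col9a2, 15 for Prg4 and 11 for Sparcl1.

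All 7 genes had a promoter in the RefSeq table (build GRCr8). The 150 bases before the start are shown for 4 of them: the pair of abundant chains that moved in opposite directions, the second minor fibrillar chain that fell, and lubricin, which was listed at 0 in MSCs. Capitals mark the motifs that were searched on both strands, namely the AP-1 motif, spelled TGANTCA, the TATA box, spelled TATAAA, the SOX motif, spelled ACAATG, the CCAAT box, spelled by its name, and the GC box, spelled GGGCGG. Apart from the overlap named for Col11a2, no matches overlapped.
Col6a1, chr20:11905540-11905689, plus strand: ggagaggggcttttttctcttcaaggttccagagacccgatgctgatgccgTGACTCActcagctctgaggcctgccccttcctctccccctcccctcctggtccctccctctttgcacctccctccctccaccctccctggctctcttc
Col11a1, chr2:204508986-204509135, plus strand: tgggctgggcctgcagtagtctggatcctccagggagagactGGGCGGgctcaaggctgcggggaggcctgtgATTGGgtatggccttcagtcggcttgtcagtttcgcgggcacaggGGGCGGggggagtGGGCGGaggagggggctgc
Col24a1, chr2:236872484-236872633, plus strand: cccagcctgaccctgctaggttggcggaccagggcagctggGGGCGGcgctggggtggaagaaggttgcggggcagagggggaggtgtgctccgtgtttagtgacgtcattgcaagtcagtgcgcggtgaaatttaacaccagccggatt
Prg4, chr13:65054226-65054375, minus strand: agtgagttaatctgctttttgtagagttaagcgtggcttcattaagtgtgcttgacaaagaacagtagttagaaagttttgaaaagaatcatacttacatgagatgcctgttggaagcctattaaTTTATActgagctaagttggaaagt

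The window of Col6a1 held 1 AP-1 motif, which 3.69% of the 33469 promoter windows of this length held. Col11a1 held 3 GC boxes and, on the reverse strand, 1 CCAAT box. Col24a1 held 1 GC box, and Col11a2, whose window is not printed, held 3, of which 2 overlap. The window of Col11a2 is on the minus strand in GRCr8, whereas the deposited coordinates place the gene on the plus strand. A GC box was found in 26.0% and a CCAAT box in 23.5% of all windows. Prg4 held only a TATA box read on the reverse strand, 25 bases before the start, a motif of 8.0% of windows. The windows of Sparcl1 and Col9a2 held none of the 5 motifs, and SOX, at 6.94% of all windows, was in none of the 7. The share of G and C was 68.7% for Col11a1, 62.7% for Col24a1, 62.0% for Col6a1 and 34.7% for Prg4, beside a median of 52.7% over all windows. Col24a1 has 3 starts in the table, and the first listed was used.

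The depth that the confidence intervals of the FPKM imply was 41.2 to 54.1 M reads per library. Vim, a marker of mesenchymal cells, and Nes together summed to 2560 to 3015 FPKM in MSCs, 674 to 879 in NPCs and 630 to 827 in NPCs with IGF-1, and Vim held nearly all of each sum. Nes itself went the other way, at 0.117 ± 0.055 FPKM in MSCs, 0.305 ± 0.020 in NPCs and 0.294 ± 0.033 with IGF-1. Its log2 fold change in the fits below was 0.90 in NPCs and 0.85 with IGF-1, under the threshold of 1 used there. The 4 of 8 neural progenitor markers that could be named (Nes, Msi1, Fabp7 and Prom1) summed to no more than 1.35 FPKM in any library, and Fabp7 was listed at 0 in all 9. Their sum was 0.942 to 1.35 FPKM in MSCs, 0.560 to 0.764 in NPCs and 0.711 to 0.993 with IGF-1. Prom1 moved against Nes, from 0.592 FPKM in MSCs to 0.0203 in NPCs and 0.0136 with IGF-1. Msi1 was at 0.452, 0.371 and 0.531 FPKM in the same order. Of 10 chondrocyte markers, 2 could be named. Sox9 was at 3.68 ± 1.46 FPKM in NPCs, 6.31 ± 2.73 in NPCs with IGF-1 and 4.45 ± 0.93 in MSCs (SD, n = 3 each), and Ucma was listed at 0 in all MSC libraries and at 1.64 ± 1.12 and 8.50 ± 8.67 FPKM in NPCs without and with IGF-1. Col2a1, Acan and Comp could not be paired with a gene ID and were not analysed here.

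The first comparison asks how the transcriptome of MSCs differs after 3 days with EGF and bFGF. Of the 7 matrix genes, Col6a1 and Sparcl1 rose, Col11a1, Col24a1 and Col9a2 fell, and Col11a2 did not pass the test. Prg4, listed at 0 in MSCs, entered the fit only through the induced libraries, so that its call was fixed by the filter on low values and is given no test here. Sparcl1 passed that filter, 0.1 FPKM in 3 libraries, only with the help of induced libraries, since 2 MSC libraries reached 0.1 FPKM. Its call therefore also depends on the group where it is high. A gene was called where its p, adjusted by Benjamini-Hochberg over all genes tested, was 0.05 or less and its log2 fold change reached 1 in either direction, in limma fits of log2(scaled FPKM + 0.1), which understates the change of genes near that added value. By this rule 21.6% of the 13696 genes tested were called, 11.7% higher and 9.89% lower in NPCs. NPC and MSC libraries of all 7 genes did not overlap, as was the case for 49.8% of genes tested. Col11a1, Col24a1, Col9a2 and Sparcl1 have a name here because the study listed them as changed between these same samples, so that their directions are not independent evidence. The same holds for Prg4, which the study also lists as changed, and for Col6a1, which it reports as upregulated in NPCs.

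**Figure D1:**
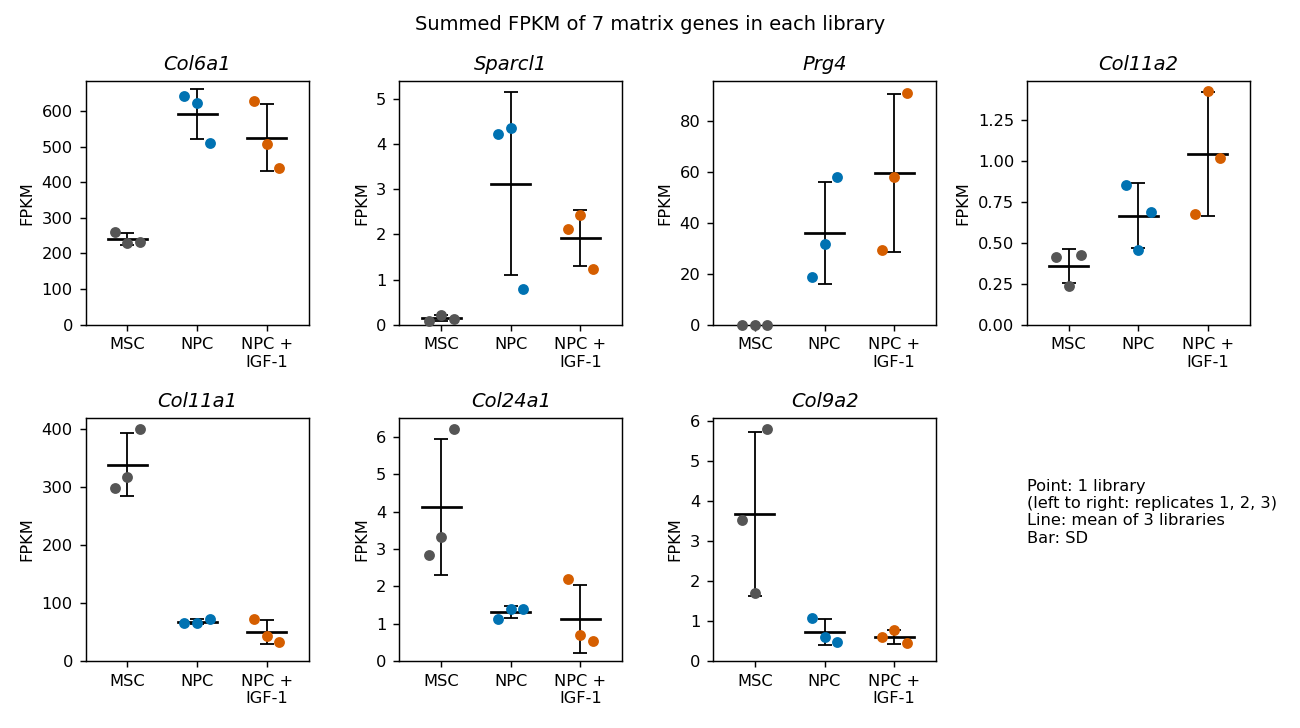
Summed FPKM (vertical axes, linear and from 0, each with its own range) of each gene in MSC, NPC and NPC with IGF-1 libraries. Each point is 1 library, lines are means of 3 libraries and bars are SD; no mean is drawn for Prg4 in MSCs, where it was listed at 0. All 6 induced libraries lie above the 3 MSC libraries for Col6a1, Sparcl1, Prg4 and Col11a2 and under them for Col11a1, Col24a1 and Col9a2.

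Col6a1 was the most abundant of the genes in every induced library. It was at 641, 622 and 510 FPKM in NPC libraries 1 to 3, at 628, 506 and 441 FPKM in those with IGF-1 and at 261, 229 and 233 FPKM in MSCs. The 3 MSC values lie close together and all 6 induced values lie above them. On the log2 scale NPCs exceeded MSCs by 1.22 ± 0.15 (SE; adjusted p = 0.00111), a 2.33-fold increase. The whole level sat in 1 of the 2 annotated transcripts in all 9 libraries, and between 38295 and 118682 implied reads stood behind every value. Deposited intervals overlapped within groups, as in NPC libraries 1 (614 to 668 FPKM) and 2 (596 to 648). Between groups they did not: the lowest bound in induced libraries was 422 FPKM, in library 3 with IGF-1. The highest bound in MSCs was 272 FPKM, in library 1.

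Col11a1 moved the other way. It was at 298, 317 and 401 FPKM in MSCs, at 65.3, 66.0 and 73.7 FPKM in NPCs and at 73.1, 43.1 and 34.2 FPKM in NPCs with IGF-1. MSCs held the 3 highest values by a wide margin, and the NPC libraries without IGF-1 were nearly alike. Its log2 fold change in NPCs was -2.37 ± 0.20 (adjusted p = 0.000202), or 5.15-fold lower.

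Since FPKM are scaled by transcript length, Col11a1 and Col6a1 can be set against each other within a library. Col11a1 was above Col6a1 in each of the 3 MSC libraries, at 1.14, 1.38 and 1.72 times its FPKM. In NPCs the order was turned: Col6a1 was at 9.82, 9.42 and 6.92 times the FPKM of Col11a1, and with IGF-1 at 8.59, 11.7 and 12.9 times. The mean log2 ratio of Col11a1 to Col6a1 was 0.48 in MSCs, -3.11 in NPCs and -3.45 in NPCs with IGF-1. Each induced group differed from MSCs with an exact two-sided permutation p of 0.1, the smallest that 3 against 3 libraries allow (adjusted p = 0.15 over the 9 ratio comparisons made), so this test could not have passed a threshold of 0.05.

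Col11a2, which gives the second chain of type XI collagen, stayed far under its partner. It was at 0.414, 0.238 and 0.426 FPKM in MSCs, at 0.854, 0.457 and 0.686 in NPCs and at 0.673, 1.43 and 1.02 in NPCs with IGF-1. The groups with and without induction did not overlap, but the lowest NPC value lay just over the highest MSC value. The log2 fold change in NPCs was 0.67 ± 0.34, with a 95% interval of -0.11 to 1.46 and an adjusted p of 0.160. Between 67 and 260 implied reads stood behind these values.

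The FPKM of the 2 type XI chains thus drew nearer to each other after induction, although they remained far apart. Col11a1 was at 720, 1331 and 941 times the FPKM of Col11a2 in MSCs. The ratio was 76.5, 145 and 107 in NPCs and 108, 30.2 and 33.6 in NPCs with IGF-1. The MSC ratios were above all 6 induced ratios (exact two-sided permutation p = 0.1 for each induced group, adjusted p = 0.15), while the induced groups overlapped (exact p = 0.3).

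Col24a1 and Col9a2, the minor fibrillar chain and the surface chain, were both at a few FPKM in MSCs and fell in NPCs. Col24a1 was at 2.84, 3.32 and 6.21 FPKM in MSCs, at 1.14, 1.39 and 1.41 in NPCs and at 2.19, 0.694 and 0.540 in NPCs with IGF-1. MSC library 3 was high and library 1 of the IGF-1 group lay nearest to the MSCs, without reaching them. Its log2 fold change in NPCs was -1.56 ± 0.35 (adjusted p = 0.0123), a 2.96-fold decrease.

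Much of the scatter of Col24a1 came with short isoforms, to which a given number of reads gives a high FPKM. In MSC library 3, an unannotated isoform of 748 bases with 7 exons carried 3.83 of the 6.21 FPKM. When FPKM were turned into RPM, the implied reads scaled to library depth, from the length of each isoform, the MSC libraries stood at 10.9, 13.6 and 10.04 RPM, NPCs at 3.32, 2.85 and 2.70, and NPCs with IGF-1 at 3.52, 2.36 and 2.08. On that scale, chosen after the FPKM were seen, the 2 sides lie further apart than on FPKM. The log2 fold change was then -1.99 in NPCs (adjusted p = 7.0e-05) and -2.20 with IGF-1 (adjusted p = 2.14e-05). With annotated transcripts alone the change in NPCs was 0.20 on the log2 scale (adjusted p = 0.934), since the annotated transcript carried 0 FPKM in MSC library 3 and 12.6% of the FPKM in library 2.

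Col9a2 was at 3.51, 1.71 and 5.80 FPKM in MSCs, at 1.09, 0.612 and 0.481 in NPCs and at 0.603, 0.786 and 0.447 in NPCs with IGF-1. The MSC libraries spread over 3.38-fold, and the lowest of them was still above every induced library. Its log2 fold change in NPCs was -2.16 ± 0.50 (adjusted p = 0.0135), or 4.48-fold lower. All FPKM sat in the 1 annotated transcript. With annotated transcripts alone for all genes the change was -2.04, and the adjusted p of 0.0934 missed the threshold.

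**Figure D2:**
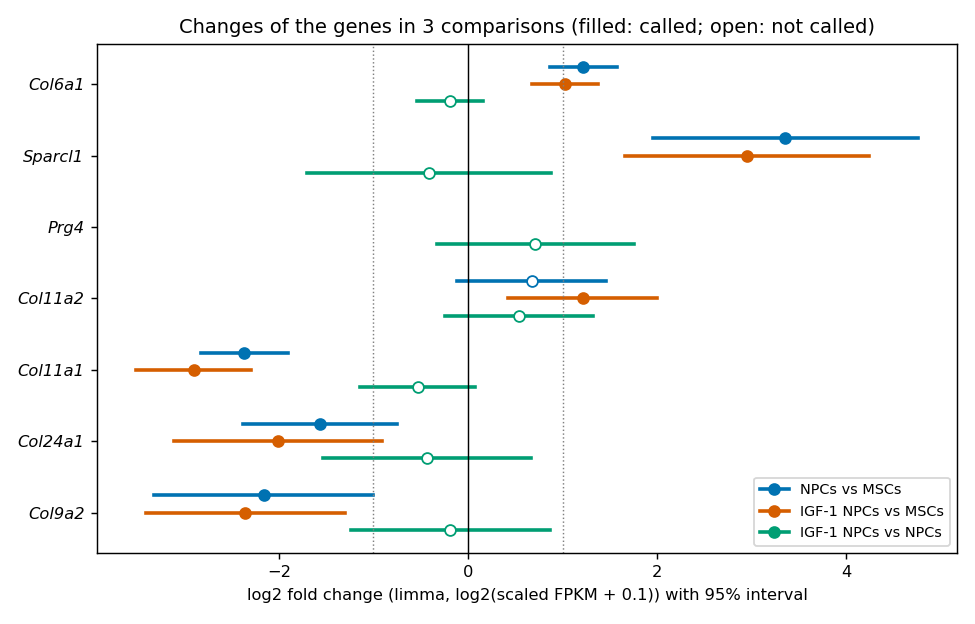
Log2 fold change (horizontal axis) with its 95% interval for each gene and comparison; filled points were called, open points were not, and dotted lines mark a change of 1 in size. Prg4 is drawn only between the induced groups, because it was listed at 0 in MSCs. Comparisons with MSCs lie to the right of 0 for Col6a1, Sparcl1 and Col11a2 and to the left for Col11a1, Col24a1 and Col9a2, and all 7 intervals between the induced groups include 0.

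Sparcl1 had the lowest mean in MSCs of the 6 genes above 0 there. It was at 0.0906, 0.218 and 0.136 FPKM there, which rest on about 10.1, 29.1 and 14.9 implied reads. In NPCs it was at 4.22, 4.35 and 0.792 FPKM, and in NPCs with IGF-1 at 2.12, 2.42 and 1.23. NPC library 3 was more than 5-fold under the other two and still above every MSC library. The log2 fold change was 3.36 ± 0.60 (adjusted p = 0.00499), or 10.3-fold, and it was 4.11 without NPC library 3 and 1.65 with 1 FPKM added in place of 0.1. MSC library 1 lay under the filter of 0.1 FPKM, so that Sparcl1 passed it only with induced libraries. With no filter on low values the limma log2 fold change was 3.35 (adjusted p = 0.0102).

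Prg4 was listed at 0 in all 3 MSC libraries and in none of the 6 others. It was at 18.6, 31.6 and 58.0 FPKM in NPCs, and at 29.3, 58.2 and 91.3 FPKM in NPCs with IGF-1. Between 2574 and 13879 implied reads stood behind the induced values. Within each induced group the highest library was 3.11 to 3.12 times the lowest, a wider range than that of Col6a1, at 1.26 and 1.42 times. No fold change or test is given against values of 0. The upper bounds deposited with the MSC values were 0.0126, 0.0108 and 0.00902 FPKM. A listed 0 is not always an absence in these files: 57 genes were at 0 in 1 MSC library and above 10 FPKM in the 2 others.

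Prg4 had an unannotated isoform in every library that held the gene. Lubricin transcripts are known to be alternatively spliced near their 5′ end. In the files the gene has 1 annotated transcript of 15 exons, counted here from the 5′ end, and it carried FPKM in 3 of the 6 induced libraries, with 63.1% of the FPKM of NPC library 3 and 34.5% and 44.8% of libraries 2 and 3 with IGF-1.

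In 5 of the 6 induced libraries an unannotated isoform joined exon 4 directly to exon 7. It left out exon 5 (chr13:72645727-72645870, 144 bases) and exon 6 (chr13:72645061-72645180, 120 bases), both internal exons, 264 bases together. Such isoforms took all of the Prg4 FPKM in NPC library 1 and in library 1 with IGF-1, 40.6% and 36.9% in NPC libraries 2 and 3, and 65.5% in library 2 with IGF-1. Library 3 with IGF-1, the one with the highest Prg4 level, held none of them. In NPC library 2 the other 59.4% sat in an isoform that starts at a short exon between exons 4 and 5 and continues at exon 7, so that no isoform of that library contained exons 5 and 6.

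The share joining exon 4 to exon 7 was 59.2 ± 35.4% in NPCs and 55.2 ± 50.8% with IGF-1 (SD, n = 3 each; exact two-sided permutation p = 1, adjusted p = 1 over the 11 shares compared). The spread within each group exceeded the difference between them. Each library was assembled by itself, and the share comes from an estimate that divides reads shared by isoforms, so that a value of 0 or 100% does not exclude a minor isoform.

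**Figure D3:**
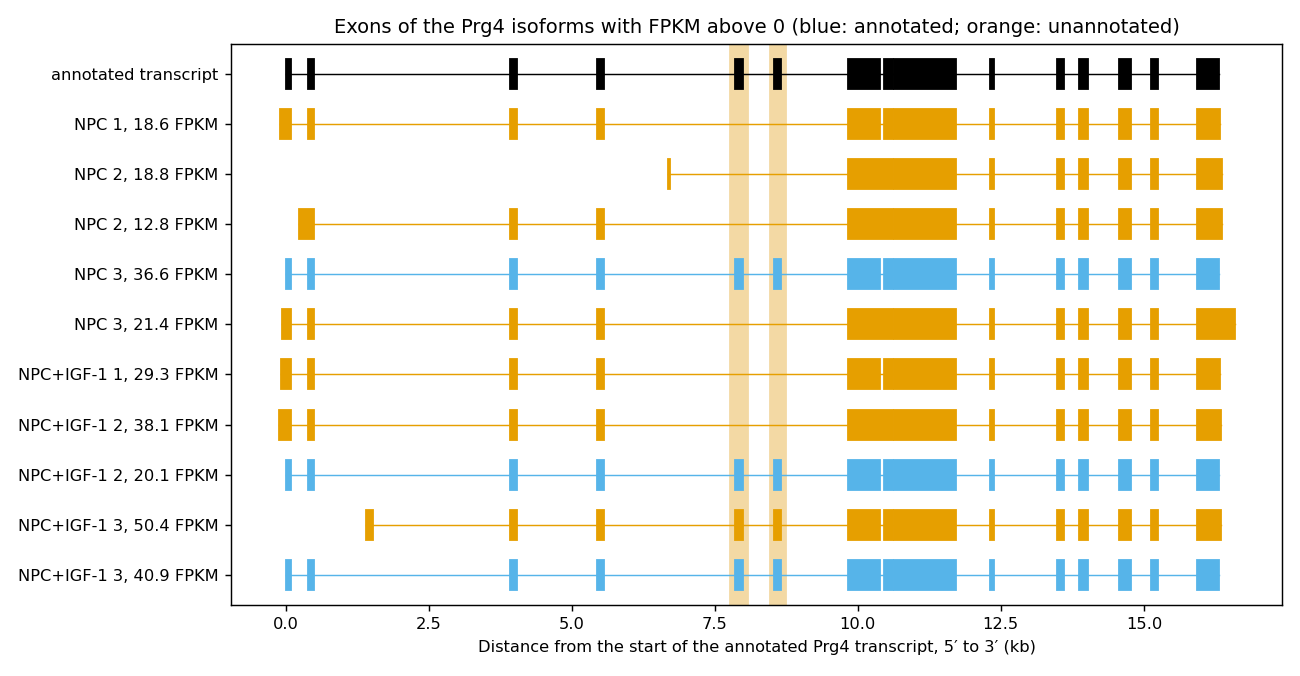
Exons (boxes, to scale) of every Prg4 isoform with FPKM above 0, by library, against the distance in kb from the start of the annotated transcript; the annotated transcript is drawn in black at the top, annotated isoforms in blue and unannotated ones in orange. The shaded bands mark exons 5 and 6, which are missing in 6 of the 7 unannotated isoforms and present in that of library 3 with IGF-1.

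Unannotated transcripts on the strand of Prg4 lay between its exons in every induced library, 8 to 10 per library, and in no MSC library. Their implied reads came to 18.7%, 12.5% and 9.88% of those of Prg4 in NPCs and to 14.5%, 14.4% and 15.8% with IGF-1. They were not added to the level of the gene. The 6 induced libraries held 64618 to 90998 unannotated transcripts of any place and the MSC libraries 28763 to 36570, and the part of this difference in the result for Prg4 was not tested.

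The other genes divided into 2 kinds by their isoforms. Col6a1, Col9a2 and Sparcl1 had FPKM only in 1 annotated transcript in all 9 libraries. Col11a1 had an unannotated isoform in 3 libraries, with all FPKM of library 2 and 21.3% of library 3 in the IGF-1 group and 34.6% of MSC library 2. Each of these 3 was a long isoform of 66 to 68 exons that started upstream of the annotated start, and kept 64 to 66 annotated introns. Col11a2 had unannotated isoforms in 5 libraries, and Col24a1 in 7.

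The share of FPKM in annotated isoforms varied as much within groups as between them. For Col24a1 it was 38.9 ± 16.3% in NPCs, 48.6 ± 44.5% with IGF-1 and 37.5 ± 54.5% in MSCs. For Col11a2 it was 84.6 ± 26.7%, 33.3 ± 57.7% and 77.1 ± 28.4% in the same order. None of the 9 comparisons between groups for Col11a1, Col11a2 and Col24a1 had an exact permutation p under 0.4 (n = 3 against 3, two-sided).

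**Figure D4:**
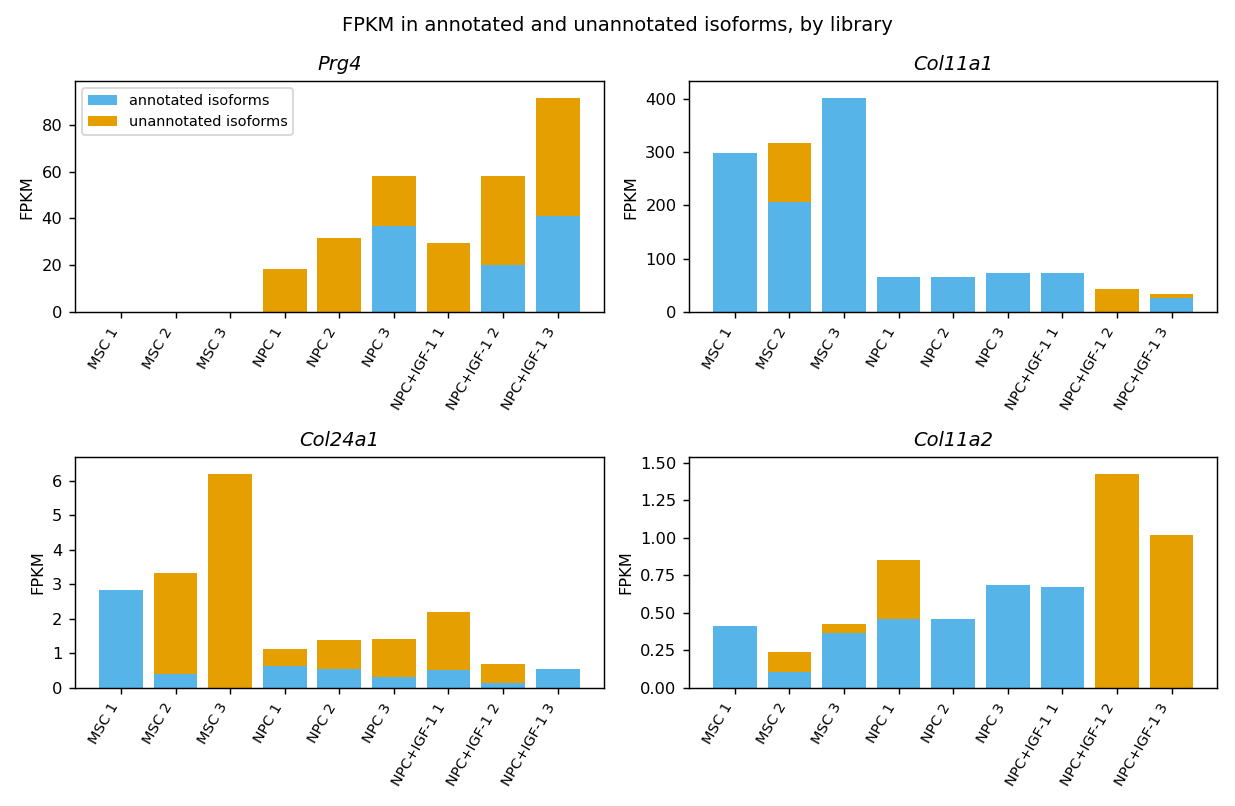
FPKM (vertical axes, from 0) of Prg4, Col11a1, Col24a1 and Col11a2 in annotated (blue) and unannotated (orange) isoforms, as stacked bars with 1 bar per library. Prg4 has no bar in MSCs, and the annotated share of Col24a1 ranges from 0 to 100% within the MSC group.

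The second comparison sets NPCs induced with IGF-1 against the same MSC libraries, which therefore stand on one side of both comparisons. Leaving Prg4 aside, the other 6 genes were all called, 3 higher and 3 lower, where 21.4% of the 14228 genes tested were called, 11.7% higher and 9.74% lower. Sparcl1, among the higher ones, again passed the filter only with induced libraries. The log2 fold change was 1.02 ± 0.15 for Col6a1 (adjusted p = 0.000938), -2.90 ± 0.27 for Col11a1 (adjusted p = 5.81e-05) and 1.21 ± 0.35 for Col11a2 (adjusted p = 0.0220). Col6a1 lay at the threshold and dropped under a change of 1 without library 1 of the IGF-1 group (0.89) or without MSC library 2 (0.94). The call of Col11a2 was lost with 1 FPKM added (0.54), after quantile normalisation (0.90, adjusted p = 0.0675) and without library 2 of the IGF-1 group (0.98, adjusted p = 0.0820) or MSC library 2 (0.97, adjusted p = 0.0777). Without library 3 of the IGF-1 group its log2 fold change was 1.19, nearly the same size, and the adjusted p of 0.0592 missed the threshold. With annotated transcripts alone it turned to -0.88 (adjusted p = 0.533), since libraries 2 and 3 of the IGF-1 group then stood at 0.

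Col24a1 and Col9a2 fell by 2.01 ± 0.49 and 2.36 ± 0.47 on the log2 scale with IGF-1 (adjusted p = 0.0106 and 0.00389), that is, 4.01-fold and 5.12-fold lower. Sparcl1 rose by 2.95 ± 0.57 (adjusted p = 0.00346), a 7.72-fold increase. Leaving Prg4 aside, libraries of the 2 groups did not overlap for any of the other genes, as for 54.4% of all genes tested. With annotated transcripts alone, Col11a1 (log2 fold change -5.61, adjusted p = 0.132) and Col24a1 (-0.16, adjusted p = 0.948) were not called.

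The third comparison isolates the addition of IGF-1 to EGF and bFGF. None of the 7 genes was called, and every adjusted p was 1. Over all genes, limma called 0.0211% (3 of 14228), 0.0141% higher and 0.00703% lower with IGF-1, and 661 had an unadjusted p under 0.05. The induced groups overlapped for each of the 7, whereas 9.60% of all genes tested did not overlap.

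The intervals of the difference show which changes the data leave possible. For Col6a1 the log2 difference was -0.19 with a 95% interval of -0.54 to 0.15, so that a change of 1 in either direction lay outside it. For Col11a1 it was -0.53 (-1.14 to 0.07), for Prg4 0.71 (-0.33 to 1.76) and for Col11a2 0.54 (-0.24 to 1.32). The intervals of Sparcl1 (-1.70 to 0.87), Col24a1 (-1.54 to 0.66) and Col9a2 (-1.24 to 0.86) also include 0, and differences of more than 1 were not excluded by them. The log2 difference of Sparcl1 was -0.41 with all libraries, -1.16 without NPC library 3 and -0.04 without NPC library 1 or 2, and it was not called in any of these fits.

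From the lowest mean to the highest, the order was MSCs, NPCs with IGF-1 and then NPCs for Col6a1 and Sparcl1, and MSCs, NPCs and then NPCs with IGF-1 for Col11a2 and Prg4. Col11a1, Col24a1 and Col9a2 were lowest with IGF-1, followed by NPCs and by MSCs. In all 7 orders the induced groups were neighbours whose libraries overlapped.

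Other genes of the collagen and cartilage matrix could be followed only in part, since 19 of 129 listed genes had a name and a place in the files, and 12 of those 19 are named by the study's own list of changed genes. Of the 17 that were tested, 8 were higher, 5 lower and 4 not called in NPCs, with a median log2 fold change of 1.18 beside 0.03 over all genes tested, of which 21.6% were called. The 12 genes that the study listed as changed make up 6 of the 8 higher and all 5 lower, so that these counts are not independent evidence of a direction. Of the 5 tested genes that are not on the shortened copy of that list used here, 2 were higher (Sox5 and Chad), 0 lower and 3 not called, with a median of 0.32. The study may list these genes too, since Col6a1 is missing from the copy although the study reports it as upregulated. With IGF-1 7 were higher, 4 lower and 6 not called against MSCs, with a median of 0.85, and none was called between the induced groups. Among the 8 named of 21 cartilage proteoglycans and glycoproteins, 5 rose (Dcn, Cilp, Ucma, Lum and Chad), 1 fell (Matn4) and 2 were not called in NPCs. Dcn, the collagen-binding proteoglycan decorin, went from 1.06 ± 0.06 FPKM in MSCs to 106 ± 85 in NPCs and 194 ± 134 with IGF-1 (SD, n = 3). Lum, which encodes the related lumican, went from 9.76 ± 3.91 to 115 ± 35 and 168 ± 54 FPKM. Cilp, a protein of the cartilage intermediate layer, went from 2.73 ± 0.54 to 165 ± 75 and 119 ± 41 FPKM. These 3 passed the test against MSCs in both induced groups, with log2 fold changes of 6.13, 3.52 and 5.72 in NPCs. Ucma and Chad were under 0.1 FPKM in all 3 MSC libraries and entered the fits only through the induced ones, so that their calls support nothing.

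Genes around the collagens divided in direction. Of 31 listed collagen-processing enzymes 2 could be named, and both fell in NPCs, where 21.6% of all genes tested were called. Loxl4, of the lysyl oxidase family that cross-links collagen, had a log2 fold change of -2.44 and P4ha3, a prolyl 4-hydroxylase subunit, one of -2.01. Both are on the study's list of changed genes, as are Itga10, Itgb1, Thbs2 and Thbs4. The directions of these genes are therefore not independent evidence. Of 11 listed collagen receptors 2 could be named. Itga10 rose from 0.0959 ± 0.0135 to 4.96 ± 1.24 FPKM, with 1 MSC library at the filter of 0.1 FPKM, while its partner Itgb1 fell from 1086 ± 116 to 243 ± 35 FPKM. Of 3 named of 16 glycoproteins on the SPARC and thrombospondin list, Thbs4 rose by 2.14 on the log2 scale, Thbs2 fell by 1.49 and Tnn was not called (-0.04). Of 2 named of 12 transcription factors of cartilage, Sox5 rose by 2.32 and Sox9 was not called (-0.39). Col13a1 and Col26a1, the 2 further collagens with a name, were under 0.1 FPKM in the mean of every group and were not tested, and no fibrillar or basement membrane collagen of the lists could be named.

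Markers of other cell types that move with Prg4 and Sparcl1 are given beside them. Cd68, a lysosomal protein abundant in macrophages, was at 0.344 ± 0.142 FPKM in MSCs, 10.5 ± 0.9 in NPCs and 10.9 ± 3.1 with IGF-1, while Ptprc and Aif1, the other 2 of 8 haematopoietic markers that could be named, were at or near 0 in all groups. The 4 named of 8 synovial lining and tendon markers include Prg4 itself and summed to 46.3 to 92.0 FPKM in MSCs, 119 to 143 in NPCs and 117 to 160 with IGF-1. Without Prg4 the other 3 summed to 46.3 to 92.0, 61.0 to 111 and 68.5 to 87.7 FPKM, which overlap. Of these, Thbs4 rose, Hbegf fell from 16.8 ± 1.5 to 8.06 ± 1.71 FPKM in NPCs, and Scx was at 29.8 ± 22.0 FPKM in MSCs and 9.44 ± 4.66 in NPCs, called lower only with IGF-1 (differences between the induced groups were not called for any of them). Of 7 osteoblast markers 2 could be named: Dmp1 went from 0.0404 ± 0.0292 FPKM in MSCs to 1.82 ± 1.43 in NPCs and 0.936 ± 0.405 with IGF-1, while Ibsp was at 0.329 ± 0.078, 0.135 ± 0.170 and 0.0760 ± 0.0796. Vwf, 1 of 6 endothelial markers, went from 0.0177 ± 0.0088 FPKM in MSCs to 0.345 ± 0.155 in NPCs and 0.141 ± 0.069 with IGF-1. Dmp1 and Vwf, like Prg4, were under 0.1 FPKM in all MSC libraries. Adipoq, 1 of 6 adipocyte markers, was at no more than 0.0302 FPKM in any library. The part of these cell types in the levels of Prg4 and Sparcl1 was not tested.

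For each gene the 2 named genes with the most similar pattern over the 9 libraries were taken, by Pearson's r of log2(scaled FPKM + 0.1), as a description. Because MSCs and induced cells form separate groups, the difference between them is part of each r. Prg4 was closest to Ccl7, a chemokine (r = 0.998), and Gas7 (0.996). Col11a1 was closest to Prss23, a secreted protease (0.991), and Cdh3, or P-cadherin (0.990), and Col24a1 to Tspan6 (0.960) and Pdgfd (0.941). Col9a2 was closest to Igfbp6, which binds insulin-like growth factors (0.971), and Ppp1r14a (0.952). Col6a1 was closest to Gpn3 and Sema3a (both 0.987), Sparcl1 to Cdk19 (0.990) and Ppfibp2 (0.987), and Col11a2 to Klhl21 (0.938) and Maml1 (0.925).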

How the data were processed

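Stranded mRNA-seq (TruSeq, polyadenylated RNA, 300 ng of total RNA per library, single-end) was analysed in 9 libraries of 3 groups. Per the labels, the authors used CASAVA 1.8, bcl2fastq, TopHat, Bowtie2, Cufflinks and Cuffdiff, and the deposited FPKM of each assembled transcript stand in the attribute text of 1 file per library. The deposited Cufflinks score of each transcript was not used. The study's methods name rn6 and an Ensembl annotation for a separate alignment (STAR, RSEM, DESeq2), whose counts were not used here, and no source used here says whether the deposited coordinates follow them. Whether the 3 libraries with IGF-1 came from separate rats is not given, and their p-values measure the spread between libraries.

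FPKM were added over annotated isoforms and unannotated ones with exon overlap on the same strand, divided by median-of-ratios size factors (0.875 to 1.06), and fitted as log2(FPKM + 0.1) by limma 3.58.1 in R 4.3.3 (trend, robust). Genes needed 0.1 FPKM in 3 libraries and an annotated transcript of 300 bases, which all 7 passed. Prg4 passed only through the induced libraries, and Sparcl1 needed them beside 2 MSC libraries. NPCs and MSCs were fitted on 6 libraries, comparisons with IGF-1 on 9. Depth was taken from the deposited confidence intervals of unannotated transcripts of 300 to 3000 bases that stood alone in their assembled gene. Implied reads of a gene are its FPKM times this depth and an effective length based on a mean fragment of 200 bases. They cover counting error only, and the intervals of the gene itself were not used. Reads of unannotated transcripts between Prg4 exons and opposite Col9a2 came from their own intervals. Of the steps shown, limma was run on simulated data, with independent normal noise of its own estimated spread and changes planted only in genes of higher level. That run checks the code and does not bear on genes near the filter. Python 3.11.15 did the rest.

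Symbols came from gene IDs in shortened copies of the study's additional files. From these copies 2451 of 20973 genes with an ID could be named, which is not the number that the study itself names. The genes and lists were chosen with earlier results of these data known. The text names all 7 genes, up to 4 genes of each matrix list, first by size of a called change in NPCs and then by mean FPKM (Matn4 and Chad were added after their values were seen), and for each of the 7 the 2 genes of highest r among those with a mean of at least 1 FPKM. Markers were named by list. Alternatives were other pseudocounts (1 and 0.01), filters, scalings, a replicate block, no trend, annotated transcripts only, genes of every length, other libraries in the fit, each library left out and, chosen after seeing the data, implied reads scaled to depth in place of FPKM.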

Additional observations from a re-analysis of the deposited data

Results flagged for a closer look

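Unannotated transcripts between the exons of Prg4, outside the summed level of the gene, stood out because no MSC library listed any. Prg4 itself was listed at 0 there, and a transcript that was not assembled does not bound the number of reads. Their implied reads were 483, 494 and 990 in NPC libraries 1 to 3 and 700.5, 1261 and 2195 in libraries 1 to 3 with IGF-1. As a share of the reads of Prg4 they averaged 13.7 ± 4.6% in NPCs and 14.9 ± 0.8% with IGF-1 (SD, n = 3 each), a difference with an exact two-sided permutation p of 0.7.

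Unannotated transcripts on the strand opposite Col9a2 carried 36.4 implied reads in NPC library 3 and 25.9, 45.5 and 71.9 in libraries 1 to 3 with IGF-1. MSC libraries 2 and 3 carried 11 and 9.59, and NPC libraries 1 and 2 and MSC library 1 carried none. In library 3 with IGF-1 these reads came to 129% of those of Col9a2 itself, and this pattern was not tested between groups.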

How the results depend on the processing

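Of the 412 values of the 7 log2 fold changes under other settings, 397 kept their direction and their side of the threshold, 11 lost the call and 4 turned. The 412 include the values between the induced groups, where none of the 7 genes was called and no call could be lost. They also include Prg4 against MSCs, whose call was fixed by the filter, and Sparcl1, which needed induced libraries to pass it. A gene is not counted under a setting that left it untested, as Prg4 was in NPCs with annotated transcripts alone. Counting only annotated transcripts changed most: 3 of the 7 genes were then called in NPCs and 3 with IGF-1 against MSCs, and over all genes 1191, 1499 and 19 were called in the 3 comparisons, in place of 2957, 3044 and 3. Under that setting Col24a1 turned to 0.20 in NPCs, and Col11a2 to -0.88 with IGF-1 against MSCs and to -1.68 between the induced groups. With 1 FPKM added, 1715 and 1758 genes were called against MSCs. Between the induced groups 5 genes were called without a filter, 5 without trend and 9 with genes of every length. The cause was not tested. With a filter at 1 FPKM, 5, 6 and 0 of the 7 genes were called, Prg4 included in both comparisons with MSCs. Col11a2 was then not tested in any comparison, and Sparcl1 was not tested in NPCs without IGF-1 against MSCs.

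Leaving out 1 library at a time gave 5 to 6 called genes of the 7, Prg4 included, in NPCs, 5 to 7 with IGF-1 against MSCs and 0 between the induced groups. Prg4 could not be tested in NPCs without an NPC library, because fewer than 3 libraries then reach the filter. Over all genes the counts ranged from 2255 to 2860, from 2717 to 3063 and from 1 to 10. Col9a2 ranged from -0.39 to 0.11 between the induced groups (-0.19 with all libraries) and turned without NPC library 1, and Sparcl1 ranged there from -1.16 to -0.04. With the replicate block, 1 gene of all was called between the induced groups, and no call among the 7 changed. Libraries of the same number in different groups correlated at -0.0956 to 0.103, so that the numbers were not taken as pairs. By the study's methods, the NPCs were made from the MSCs of the same 3 rats, but which libraries share a rat is not given. The main fits treat the libraries as independent and leave this shared origin out. Depth limits Sparcl1 in MSCs, at 10.1 to 29.1 implied reads, and Col11a2.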
